A study of Homo sapiens with 16 samples.

Results

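The transcription factor TCF7 was lowered with a small interfering RNA (siTCF7) in 2 human gastric cancer cell lines, SNU719 and YCC10, and each knockdown was compared with a control small interfering RNA (siCtrl) in the same line. The comparison rests on 4 of the 16 RNA-seq libraries of the study, chosen by their labels, with 1 library per arm and line. The other 12 are siMYB and siCtrl libraries, 2 each per line, and the CRISPR interference libraries with a guide named sgMYB-E3 or a control guide, 1 each per line. The siCtrl libraries are labelled WT and the siTCF7 libraries TCF7 knockdown. Culture was in RPMI1640 for SNU719 and EMEM for YCC10, each with 10% fetal bovine serum, so the medium and the line cannot be told apart. Both are established lines carrying Epstein-Barr virus, and each stands for the tumour of 1 patient. For the small interfering RNAs, sequence, dose and time were not part of the sources used here. Nothing in the labels says that libraries came from separate cultures, and the p-values then reflect only how far these samples spread, possibly for technical reasons.

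TCF7, also called TCF-1, belongs with LEF1, TCF7L1 and TCF7L2 to the TCF/LEF family, the DNA-binding partners of beta-catenin at the end of the canonical WNT pathway. Without nuclear beta-catenin these factors tend to hold WNT target genes down through Groucho/TLE co-repressors, and with it they switch the same genes on. WNT signalling maintains the stem cells of the gut epithelium, and TCF7 is also known as a factor of T cells. MYB, the gene that the other experiments of the study address, encodes a transcription factor of proliferating progenitor cells. Its relative MYBL2 joins the MuvB complex, which with FOXM1 switches on the genes of G2 and mitosis.

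Levels were deposited as FPKM, a scale that divides the fragments of a gene by the transcript length and by the mapped fragments of the library. Depth in reads is therefore unknown, but relative depth estimated from the lowest values was 0.958 to 1.03 over the 4 libraries, with the SNU719 siCtrl library set at 1. Genes reaching 1 FPKM numbered 11334 to 11817 in these libraries. All 7 epithelial markers (EPCAM, CDH1, KRT8, KRT18, KRT19, CLDN4 and CLDN7) were high, with summed levels of 4113 to 8026 FPKM. Of 10 gastric markers 7 reached 1 FPKM somewhere, and CLDN18, MUC5AC and MUC6 lay at or near 0. Their summed level was 7.07 FPKM in SNU719 siCtrl against 20.8 with siTCF7, and 223 against 341 in YCC10. Single genes carried these sums, ANXA10 in SNU719 (1.38 to 12.5 FPKM) and MUC1 in YCC10 (105 to 219 FPKM). TFF1, TFF2, PGC and CTSE were lower in the YCC10 knockdown, TFF2 the most (9.09 to 5.23 FPKM). The 13 markers of leukocytes, fibroblasts and endothelium stayed under 1 FPKM, with sums of 0.071 to 0.84, and MS4A1 and PECAM1 were listed at 0 throughout. In bulk RNA, fewer cells in a given state and less RNA per cell cannot be told apart.

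The targeted gene was lower in both knockdown libraries. TCF7 (GENCODE v29 on hg38, chr5:134114711-134151865, plus strand) stood at 26.9 FPKM in SNU719 siCtrl and 7.99 in SNU719 siTCF7. In YCC10 it stood at 22.6 FPKM with siCtrl and 4.14 with siTCF7. Both knockdown libraries thus lay below both controls, at 29.7% of the control level in SNU719 and 18.3% in YCC10. The shared log2 change, the effect fitted to both lines together on log2(FPKM + 1), was -1.92 (SE 0.127, limma adjusted p = 0.000624). The knockdowns in the lines did not differ past the threshold (limma adjusted p = 0.12 for the difference).

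MYB was lower with siTCF7 as well. MYB (chr6:135181315-135219173, plus strand) stood at 45.1 FPKM in SNU719 siCtrl and 25.3 with siTCF7, and at 25.6 FPKM in YCC10 siCtrl and 5.40 with siTCF7. The SNU719 knockdown library lay just under the YCC10 control, so the arms were clearly apart only within each line. The shared log2 change was -1.43 (SE 0.264, limma adjusted p = 0.0113). The fall left 56% of the control level in SNU719 and 21.1% in YCC10, and it was steeper in YCC10 by 1.24 on the log2 scale (limma adjusted p = 0.0374 for the difference). Taken alone, the SNU719 change of -0.81 did not pass (limma adjusted p = 0.0601), whereas the YCC10 change of -2.05 did (limma adjusted p = 0.000991). In the siMYB libraries the mean log2 change of MYB was -2.82.

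Across the 12290 genes tested, 3028 passed an adjusted p of 0.05 for the shared effect of siTCF7, which is 24.6%. Of these, 1407 (11.4% of the genes tested) rose and 1621 (13.2%) fell. These calls rest largely on the spread between replicate libraries of the siMYB experiment, because the siTCF7 arms have 1 library per line. The differences between the lines under siTCF7 and under sgMYB-E3 enter that spread as well. With the 4 TCF7-set libraries alone (1 residual degree of freedom), 13 of 12062 genes passed in limma, all of them short RNA genes, and 1539 had an unadjusted p under 0.05. With the CRISPR interference libraries added, 5 of 12293 passed, with 3413 under an unadjusted 0.05. Without the 4 siMYB-experiment libraries numbered 1, an alternative chosen after seeing the data, 3 of 12327 passed, with 3391 under an unadjusted 0.05. In these 3 settings none of the 109 genes named here that passed in the full fit kept an adjusted p under 0.05. The words rose and fell below refer to the fit of all 16 libraries.

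**Figure D1:**
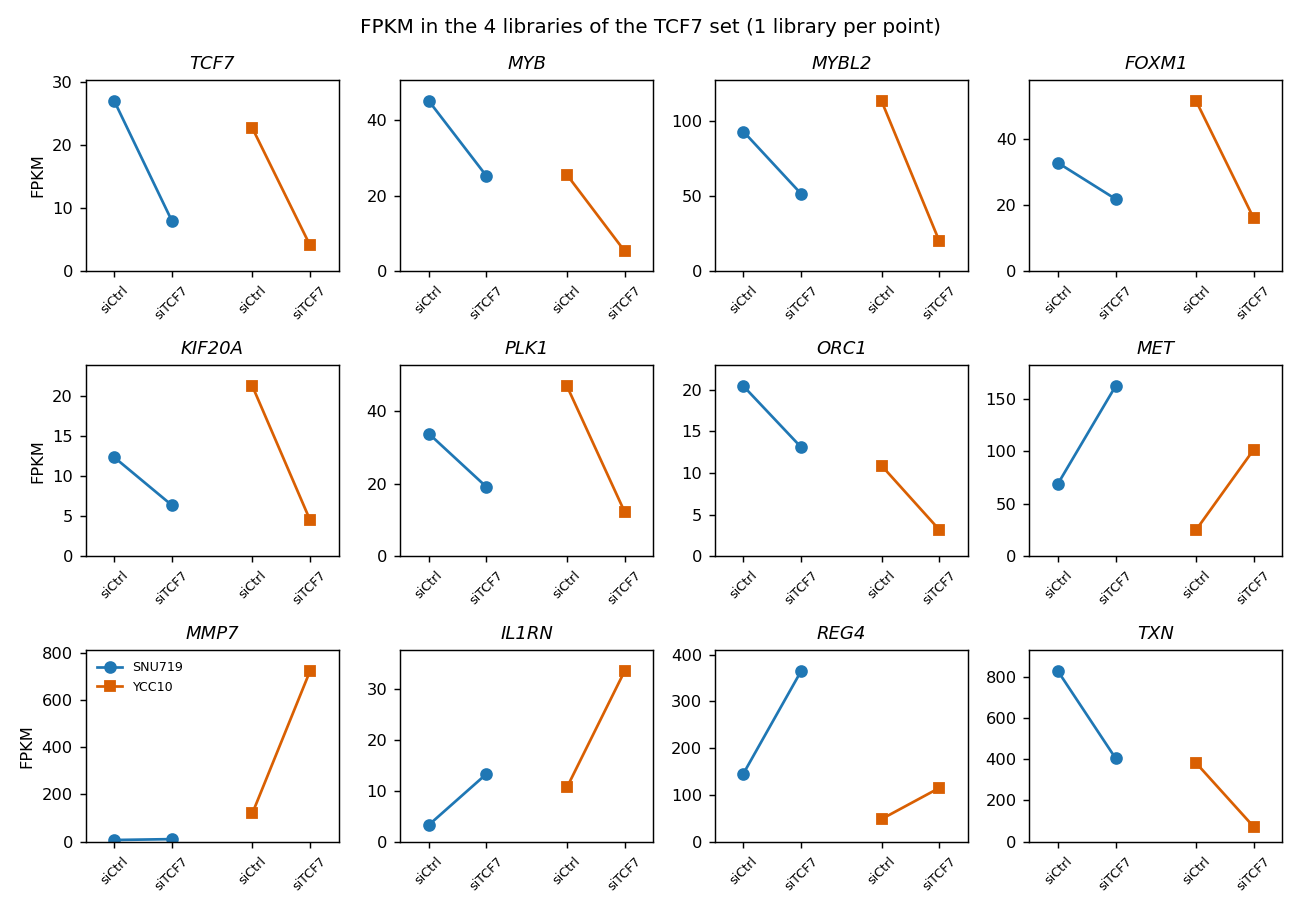
FPKM (vertical axes, linear, from 0) of 12 genes in the 4 libraries, with 1 point per library and a line joining siCtrl to siTCF7 within SNU719 (circles) and YCC10 (squares). TCF7, MYB, MYBL2, FOXM1, KIF20A, PLK1, ORC1 and TXN were lower with siTCF7 in both lines, and MET, MMP7, IL1RN and REG4 were higher.

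The response was wider in YCC10. Tests within a line, and of the difference between the lines, rest on 1 library per arm and line. Their spread comes only from the siMYB-experiment replicates, so a deviant siTCF7-experiment library and a line effect cannot be told apart. Taken alone, SNU719 gave 544 passing genes (4.43% of those tested; 2.29% higher and 2.14% lower), and YCC10 gave 3943 (32.1%; 15.4% higher and 16.7% lower). Of the genes called in SNU719, 71.0% were called in the same direction in YCC10, and these made up 9.79% of the YCC10 calls. A further 22 genes were called in both lines with opposite signs. Over 11017 genes that stand on 1 row and are not short RNAs, the log2 changes of both lines correlated at r = 0.62 across genes and shared their sign in 71.2%. Genes are not independent replicates, and this value is a description. Over the same genes the SD of the change was 0.281 in SNU719 and 0.540 in YCC10. Among the 3028 genes passing for the shared effect, 2655 (87.7%) moved further in YCC10. When 1 library of a line's pair is left out, the siTCF7 effect is fitted from the other line only. The counts and lost calls under such omissions, here and below, therefore describe 1 line and do not test the shared effect. Without either library of the YCC10 pair the shared count fell to 630 (5.12% or 5.13% of the genes tested, with 2.61% or 2.62% higher and 2.5% or 2.51% lower), and without either library of the SNU719 pair it was 4305 or 4307. Leaving out a YCC10 library ended the calls of 46 of the 109 named genes. Of the genes described below these were TCF7L2, PYGO2, CTNNBIP1, CSNK1A1, WLS, BAMBI, MMP7, CCND3, CDKN1A, CDKN2C, MNT, MXI1, E2F8, MCM2, RPL30, RPL15, SPINK4, ACTA2, LBR and SLC7A5. IFI6, OAS3, B2M, HLA-E, TAPBP, SPRED1, PSAT1, MTHFD2, SEL1L, DNAJC3, HERPUD1, SDHC, TP53I3, PLK2 and PPM1D lost theirs too, as did MYB. Of the genes described below, ACTA2, BAMBI, DUSP4, PLK2 and SOX2 did not pass without either SNU719 library.

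**Figure D2:**
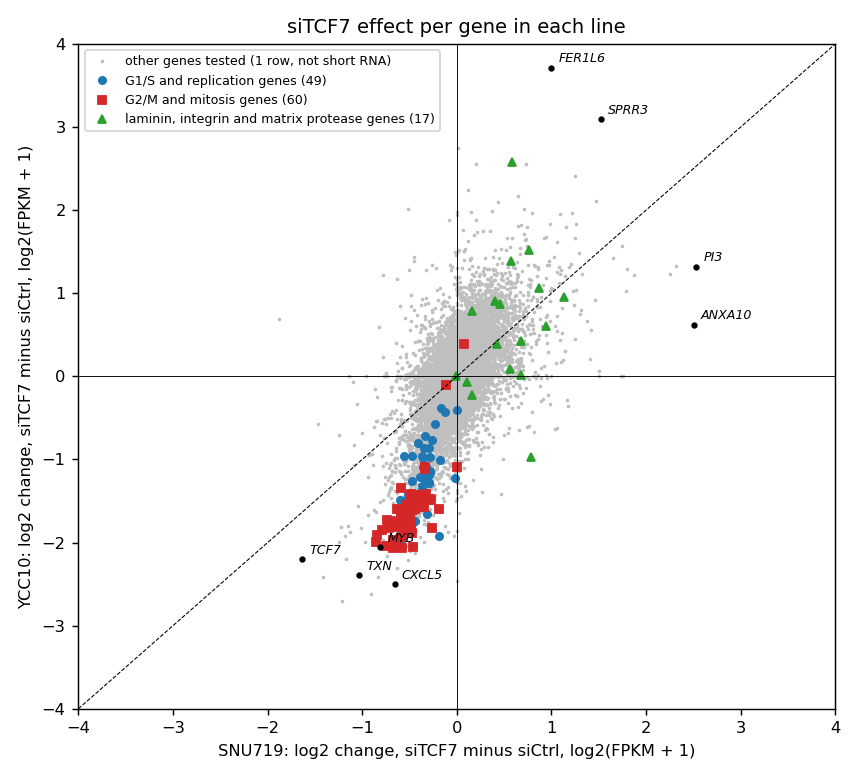
Log2 change (siTCF7 minus siCtrl, log2(FPKM + 1)) of each gene in SNU719 (horizontal) against YCC10 (vertical), grey for genes on 1 row that are not short RNAs, with the dashed line marking equal change. Nearly all G2/M genes (red squares) and G1/S genes (blue circles) lie in the lower left below that line, further from 0 in YCC10, and laminin, integrin and matrix protease genes (green triangles) lie mostly in the upper right.

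The only other TCF/LEF factor tested, TCF7L2, did not fall with TCF7. TCF7L2 (chr10:112950250-113167678, plus strand), the family member best known in intestinal epithelium, had 12.9 and 15.7 FPKM in SNU719 siCtrl and siTCF7, and 6.99 and 10.8 FPKM in YCC10. It was higher with siTCF7 in each line and rose by 0.41 (SE 0.1, limma adjusted p = 0.0224). LEF1 and TCF7L1 were below the expression filter. Of 20 partners of beta-catenin, 3 rose and 1 fell, with a median log2 change of 0.08 against 0.00 for all genes tested. The 3 were PYGO2 (0.59) and BCL9L (0.39), co-activators that bridge beta-catenin to the transcription machinery, and CTNNBIP1 (0.41), an inhibitor that blocks beta-catenin from binding TCF factors. CSNK1A1, a kinase of the complex that destroys beta-catenin, fell by 0.58. The CTNNBIP1 call was lost in 18 of 27 alternatives (limma adjusted p up to 0.482), among them the omission of any single siMYB-experiment or CRISPR interference library. Of 18 WNT ligands, receptors and secreted inhibitors, 2 rose: the receptor FZD5 (0.52, limma adjusted p = 0.00534) and WLS (0.44, limma adjusted p = 0.0186), which carries WNT proteins to the cell surface. The counts of both lists lay near the shares of all genes tested, of which 11.4% rose and 13.2% fell.

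WNT target and feedback genes were called about as often as other genes. Of 26 tested, 3 rose and 4 fell, beside 11.4% and 13.2% of all genes tested, with a median log2 change of -0.07. The falls include that of TCF7, the knockdown target, which is itself on this list. AXIN2, the most used readout of canonical WNT activity, had 37.6 and 35.0 FPKM in SNU719 siCtrl and siTCF7, and 102 and 73.4 FPKM in YCC10. It was lower with siTCF7 in both lines, but the shared change of -0.29 did not pass (limma adjusted p = 0.157). In YCC10 alone it fell by 0.47 (limma adjusted p = 0.00957), and the difference between the lines did not pass (limma adjusted p = 0.12). ZNRF3, a ligase that removes WNT receptors from the membrane, had 12.9 and 10.3 FPKM in SNU719 and 8.99 and 6.49 FPKM in YCC10. It fell by 0.36 on the log2 scale (SE 0.0578, limma adjusted p = 0.00848). TNFRSF19, also called TROY, fell from 2.22 to 0.832 FPKM (SNU719) and from 14.4 to 8.45 FPKM (YCC10), a shared change of -0.76 (SE 0.112, limma adjusted p = 0.00699). BAMBI, a decoy receptor for BMP and TGF-beta and itself a WNT target, fell from 58.3 to 35.2 FPKM (SNU719) and from 107 to 78.2 FPKM (YCC10). Its shared change was -0.58 (SE 0.115, limma adjusted p = 0.0131), against a mean of 1.14 under siMYB.

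MMP7, JUN and CLDN2, all known targets of beta-catenin, were higher. The matrix protease MMP7 went from 6.55 to 10.3 FPKM (SNU719) and from 120.0 to 722 FPKM (YCC10). It rose by 1.58 (SE 0.387, limma adjusted p = 0.0233), and the rise was larger in YCC10 by 2.00 on the log2 scale (limma adjusted p = 0.0303). That difference did not pass in 6 of 20 alternatives, each the omission of 1 siMYB-experiment library (limma adjusted p up to 0.0719). The AP-1 subunit JUN rose by 0.41 (limma adjusted p = 0.00619) and the claudin CLDN2 by 0.32 (limma adjusted p = 0.0138). The stem cell marker LGR5 was at 0.09, MYC at -0.05 and cyclin D1 (CCND1) at -0.35, and these did not pass (limma adjusted p = 0.772, 0.774 and 0.0836). In YCC10 alone CCND1 fell by 0.69 (limma adjusted p = 0.000814), from 202 to 125 FPKM, while SNU719 had 61.6 and 60.8 FPKM, and this difference passed (-0.67, limma adjusted p = 0.0088). DKK4, a secreted WNT inhibitor, had opposite signs in the lines. It went from 31.1 to 17.6 FPKM (SNU719) and from 1.64 to 5.17 FPKM (YCC10), and this difference passed (2.01, limma adjusted p = 0.011).

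The MYB family and the MuvB complex were lower. Of 11 members tested, 7 fell and the other 4 did not pass, with a median log2 change of -0.53. MYBL2 (chr20:43667019-43716496, plus strand), the MYB relative that works in the cell cycle, went from 93.2 to 51.8 FPKM (SNU719) and from 114 to 20.5 FPKM (YCC10). Both knockdown libraries lay below both controls, and the shared change was -1.63 (SE 0.292, limma adjusted p = 0.0108). FOXM1, the forkhead factor of mitotic genes, went from 32.9 to 21.9 FPKM (SNU719) and from 51.6 to 16.1 FPKM (YCC10). Again both knockdown libraries lay below both controls, and the shared change was -1.09 (SE 0.197, limma adjusted p = 0.0108). TFDP1, the dimer partner of the E2F factors, fell by 0.63. The MuvB subunits LIN9, LIN52 and RBBP4 fell by 0.67, 0.53 and 0.47. LIN54, the subunit that binds DNA, was at -0.49 and did not pass (limma adjusted p = 0.0686), and LIN37 (0.13), MYBL1 (-0.13) and TFDP2 (-0.14) did not pass either.

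Of 14 genes known as MYB targets, 5 fell and the other 9 did not pass (median -0.41). Those with the lowest p are themselves cell cycle genes. The mitotic cyclin CCNB1 went from 41.4 to 29.3 FPKM (SNU719) and from 93.6 to 32.7 FPKM (YCC10), a shared change of -0.98 (limma adjusted p = 0.0119). DNA topoisomerase TOP2A went from 44.0 to 27.7 FPKM and from 93.7 to 22.4 FPKM, a shared change of -1.33 (limma adjusted p = 0.0122). BIRC5, the survivin gene, went from 27.9 to 19.6 FPKM and from 40.0 to 12.7 FPKM, a shared change of -1.04 (limma adjusted p = 0.0132). In each of these genes the knockdown library was below its own control in both lines. Counted without either YCC10 library, 3 of the 14 targets and 2 of the 11 family members fell.

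Genes of G2 and mitosis fell almost as a whole. Of 60 tested, 57 fell for the shared effect and 3 did not pass (ECT2, BUB3 and CDC25B), with a median log2 change of -1.11. In YCC10 alone 58 fell and 1 rose, and in SNU719 alone 24 fell. The median knockdown level was 68.1% of control in SNU719 and 28.7% in YCC10, and 58 of the 60 were at or below 50% in YCC10 while in SNU719 no member reached that level. Single members ran from -1.43 (KIF20A) to 0.23 (CDC25B, not passing), and 58 were below control in both lines. For 49 of the 60 the fall in YCC10 was steeper by the test of the difference. Without either YCC10 library 24 of the 60 fell, where 2.5% or 2.51% of all genes did, and under siMYB the median of the list was -0.48.

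KIF20A, a kinesin of cytokinesis, had 12.4 FPKM in SNU719 siCtrl, 6.40 in SNU719 siTCF7, 21.3 in YCC10 siCtrl and 4.57 in YCC10 siTCF7. Both knockdown libraries lay below both controls, and the shared change was -1.43 (SE 0.21, limma adjusted p = 0.00691). Cyclin B2 (CCNB2), a partner of CDK1, had 42.6, 23.4, 53.2 and 13.5 FPKM in the same order, and the mitotic kinase PLK1 had 33.7, 19.1, 46.7 and 12.3. In both genes the arms did not overlap either. Their shared changes were -1.37 (SE 0.203, limma adjusted p = 0.00699) and -1.32 (SE 0.2, limma adjusted p = 0.00752). MKI67, which encodes the proliferation antigen Ki-67, had 31.2, 21.3, 62.2 and 16.7 FPKM and changed by -1.18 (SE 0.241, limma adjusted p = 0.0138). The kinase CDK1, which drives entry into mitosis, had 53.5, 35.9, 122 and 32.8 FPKM and changed by -1.21 (SE 0.248, limma adjusted p = 0.014). ESPL1, the separase that opens the cohesin ring, had 5.81, 4.14, 8.59 and 2.52 FPKM and changed by -0.93 (SE 0.208, limma adjusted p = 0.018). All 3 showed separated arms, and in all 3 the YCC10 control was the highest library and the YCC10 knockdown the lowest.

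MuvB binds promoters through the cell cycle homology region (CHR), with the letters TTTGAA, and many of its targets also carry a CCAAT box. The 250 bases before the start of transcription are given for MKI67, CDK1 and ESPL1, which carry both, and for MYB, which fell and holds neither in this window (RefSeq, GRCh38.p14, chr10:128126424-128126673 minus, chr10:60778081-60778330 plus, chr12:53268049-53268298 plus and chr6:135181058-135181307 plus). These G2/M genes were picked from those whose windows hold TTTGAA, so their carrying it says nothing about the list. In windows of this size it was present in 27 of 51 G2/M genes (52.9%), against 8.45% of tested genes. All are 5′ to 3′ along the gene, and capitals mark TTTGAA and CCAAT on either strand (read here as TTTGAA or TTCAAA, and CCAAT or ATTGG).
MKI67: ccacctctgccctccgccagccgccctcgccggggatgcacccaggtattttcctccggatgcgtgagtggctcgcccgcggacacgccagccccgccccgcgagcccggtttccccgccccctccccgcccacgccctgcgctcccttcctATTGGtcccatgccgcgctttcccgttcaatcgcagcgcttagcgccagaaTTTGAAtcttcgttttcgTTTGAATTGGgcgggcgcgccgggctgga
CDK1: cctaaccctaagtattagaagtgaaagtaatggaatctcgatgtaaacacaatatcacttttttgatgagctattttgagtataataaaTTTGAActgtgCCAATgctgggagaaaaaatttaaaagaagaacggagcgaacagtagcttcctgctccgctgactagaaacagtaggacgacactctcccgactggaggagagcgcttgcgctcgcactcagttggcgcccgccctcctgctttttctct
ESPL1: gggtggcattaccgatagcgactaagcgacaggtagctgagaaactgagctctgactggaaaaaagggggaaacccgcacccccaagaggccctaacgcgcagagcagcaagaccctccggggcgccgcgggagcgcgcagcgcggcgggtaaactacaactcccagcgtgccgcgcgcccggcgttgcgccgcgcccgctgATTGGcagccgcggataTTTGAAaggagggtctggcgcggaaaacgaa
MYB: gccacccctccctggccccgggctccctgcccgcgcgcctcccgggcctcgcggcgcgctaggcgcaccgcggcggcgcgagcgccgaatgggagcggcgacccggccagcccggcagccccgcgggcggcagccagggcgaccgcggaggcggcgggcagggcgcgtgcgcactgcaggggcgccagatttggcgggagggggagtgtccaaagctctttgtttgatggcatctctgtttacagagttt
In MKI67 the motif TTTGAA begins 47 and 29 bases before the start, and the copy at 29 shares 1 base with a CCAAT box on the other strand. In ESPL1 it begins 31 bases before the start, with a CCAAT box at 48. In CDK1, for which RefSeq lists 2 starts, it begins 161 bases before the one used, with a CCAAT box at 150.

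Across promoter windows of 300 bases (250 before and 50 after the start, both strands), TTTGAA was present in 36 of the 51 G2/M genes with a RefSeq promoter, or 70.6%. It was present in 9.72% of 9246 tested genes, in 16% of 1306 genes that fell and in 8.96% of 1105 that rose. Among the G1/S genes it was found in 1 of 41 (2.44%). CCAAT was present in 74.5% of the G2/M promoters, against 37.8% of tested genes. The E2F motif TTTNNCGC showed the reverse split, with 56.1% of G1/S promoters, 15.7% of G2/M promoters and 11.3% of tested genes. The TCF/LEF motif CTTTGAT was in 1.38% of the promoters of genes that fell, 1.45% of those that rose and 1.4% of all tested. Its second form CTTTGAA, which contains TTTGAA, was in 2.99%, 2.9% and 2.52%. The MYB motif AACNG was in 88.2% of G2/M promoters, against 74.8% of tested genes, 77.1% of those that fell and 73.6% of those that rose. These shares are descriptions of letters in 1 window per gene, with no test, and TCF factors also bind enhancers outside it.

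Genes of G1/S and DNA replication fell nearly as uniformly. Of 49 tested, 45 fell and 4 did not pass (CDC6, CDK2, GINS3 and CCNE1), with a median log2 change of -0.79. In YCC10 alone 47 fell and in SNU719 alone 12 fell. Median knockdown levels were 76.5% of control in SNU719 and 38.7% in YCC10. MCM3, a subunit of the replicative helicase, had 94.7 and 70.9 FPKM in SNU719 siCtrl and siTCF7, and 98.0 and 56.0 FPKM in YCC10. Its arms did not overlap, and its shared change was -0.60 (SE 0.0913, limma adjusted p = 0.00752). MCM2, of the same helicase, had 41.3, 29.4, 30.5 and 15.2 FPKM and changed by -0.72 (SE 0.115, limma adjusted p = 0.00842). ORC1, of the origin recognition complex, had 20.4, 13.1, 10.9 and 3.22 FPKM and changed by -1.05 (SE 0.172, limma adjusted p = 0.00904). In ORC1 the SNU719 knockdown lay above the YCC10 control. The lowest value of the list was CCNA2, the S phase cyclin, at -1.28, and the sliding clamp gene PCNA was at -1.09 (427 to 313 FPKM in SNU719, 432 to 128 in YCC10). Without either YCC10 library 12 of the 49 passed.

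Regulators of G1 gave few calls, in both directions. Beside them, 11.4% of all genes tested rose and 13.2% fell. Of 10 D cyclins, G1 kinases and inhibitors tested, 2 rose, 2 fell and 6 did not pass. CCND3, a D cyclin, had 14.6 and 19.2 FPKM in SNU719 and 8.19 and 35.6 FPKM in YCC10, and rose by 1.18 (limma adjusted p = 0.0259). The CDK inhibitor CDKN1A, the p21 gene, had 53.2 and 68.7 FPKM in SNU719 and 157 and 258 FPKM in YCC10, and rose by 0.54 (limma adjusted p = 0.0215). CDKN2C, the p18 inhibitor, fell by 1.01 (limma adjusted p = 0.011). In the MYC network, MXD1, which competes with MYC for MAX, had 9.94 and 21.8 FPKM in SNU719 and 5.08 and 17.6 FPKM in YCC10, and rose by 1.34 (limma adjusted p = 0.00264). MXI1 fell by 0.41. MNT, another such antagonist, rose by 0.46, but this call was lost in 20 of 26 alternatives (limma adjusted p up to 0.558). Of 11 E2F and RB family members, RBL1 (-0.87) and E2F8 (-0.46) fell and the other 9 did not pass.

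Ribosome biogenesis genes were also lower. Of 43 nucleolar genes tested, 25 fell and 18 did not pass, with a median log2 change of -0.29 (-0.25 in SNU719 and -0.34 in YCC10). TCOF1, the treacle protein that supports rRNA transcription, had 28.5 and 12.1 FPKM in SNU719 and 29.6 and 5.65 FPKM in YCC10. Its arms were well apart, and its shared change of -1.69 (SE 0.235, limma adjusted p = 0.00608) was the lowest of the list. RRP1B had 19.4, 11.1, 30.3 and 8.07 FPKM and changed by -1.27 (SE 0.192, limma adjusted p = 0.00752). NOP56, a core protein of box C/D small nucleolar ribonucleoproteins, had 203, 147, 219 and 129.5 FPKM and changed by -0.61 (SE 0.0732, limma adjusted p = 0.00372). Cytosolic ribosomal protein genes gave 20 falls among 74 tested (median -0.14), among them RPL30 (-0.69), RPS2 (-0.48) and RPL15 (-0.32). That count depended on the scaling and on 1 line: it was 6 after quantile normalization, with a median of -0.04, and 1 without either YCC10 library. The nucleolar count was 7 under that omission.

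**Figure D3:**
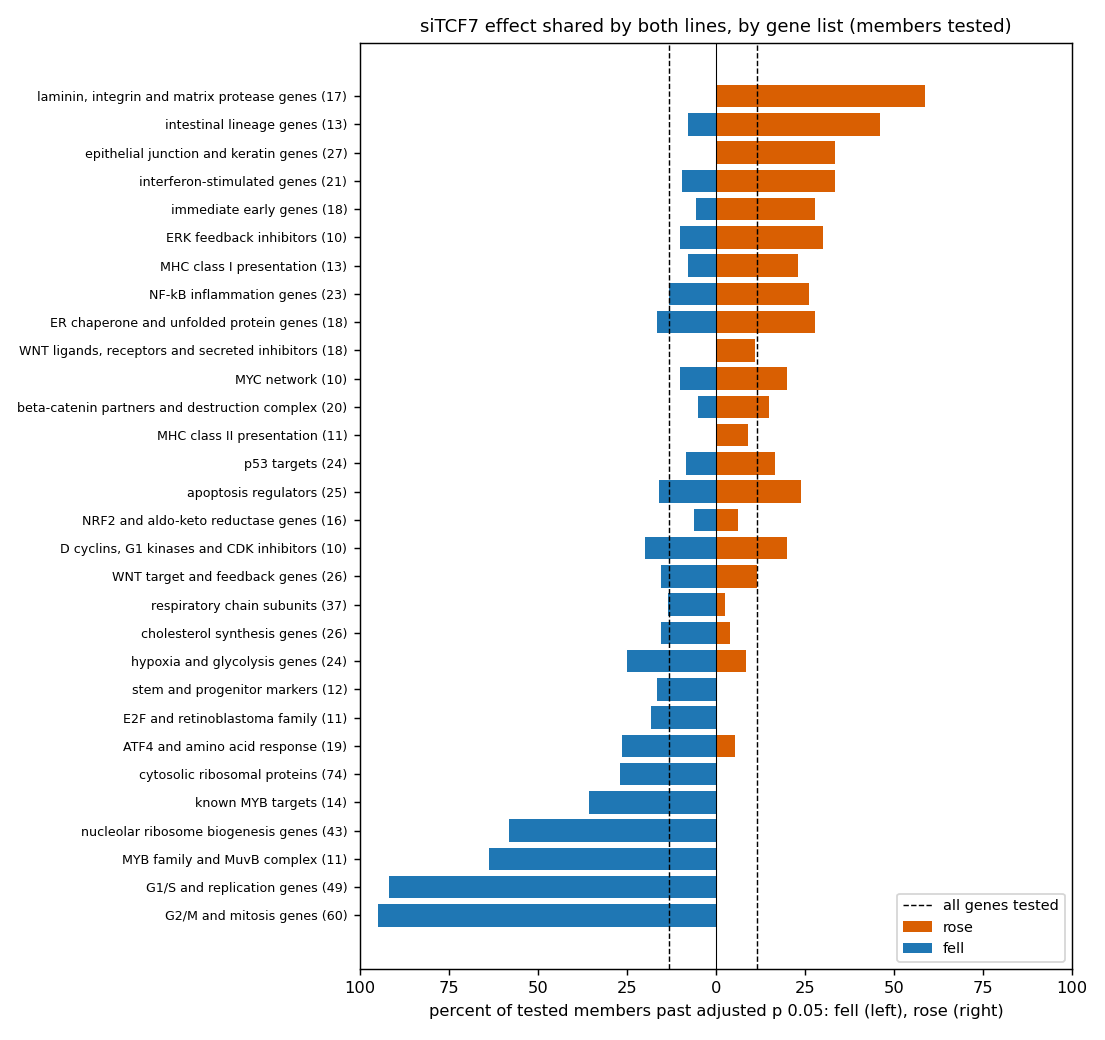
Percent of the tested members of each gene list with at least 10 tested members (number in brackets) that fell (blue, left) or rose (orange, right) for the shared effect of siTCF7, with dashed lines at the shares of all genes tested. G2/M (57 of 60) and G1/S genes (45 of 49) reach furthest to the left, and laminin, integrin and matrix protease genes (10 of 17) furthest to the right.

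Adhesion and matrix genes were higher with siTCF7. Of 17 laminin, integrin and matrix protease genes tested, 10 rose and the other 7 did not pass, with a median log2 change of 0.55. The medians were 0.57 in SNU719 and 0.61 in YCC10. Chains of laminin-332, the basement membrane protein to which epithelial cells attach, were among them. LAMA3 had 21.8 and 30.4 FPKM in SNU719 and 54.2 and 100.05 FPKM in YCC10 (0.67, limma adjusted p = 0.00653). LAMB3 had 32.2 and 48.2 FPKM in SNU719 and 18.5 and 49.9 FPKM in YCC10 (0.98, limma adjusted p = 0.0139). In LAMB3 both knockdowns lay above both controls, while in LAMA3 the SNU719 knockdown lay below the YCC10 control. The integrins that bind laminin and matrix followed. ITGA3 had 28.3 and 52.6 FPKM in SNU719 and 33.9 and 71.7 FPKM in YCC10, with both knockdowns above both controls (0.97, SE 0.106, limma adjusted p = 0.00271). ITGB6 had 2.58 and 5.08 FPKM in SNU719 and 6.93 and 21.7 FPKM in YCC10 (1.14, SE 0.149, limma adjusted p = 0.00486). The collagenase gene MMP1 had 19.7 and 44.5 FPKM in SNU719 and 5.80 and 12.2 FPKM in YCC10 (1.05, SE 0.0754, limma adjusted p = 0.000624). ITGB4 (0.40), the protease inhibitor TIMP1 (0.66) and the urokinase receptor PLAUR (0.55) rose as well. When either YCC10 library was left out 6 of the 17 rose, and under siMYB the median of the list was 0.46.

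Part of the epithelial genes were higher. Of 27 junction and keratin genes tested, 9 rose and the other 18 did not pass (median 0.19). In YCC10 alone 10 rose and 2 fell, and 11 of the 27 were below control there. The markers EPCAM (396 to 314 FPKM), KRT8 (1496 to 1331) and KRT18 (1597 to 1290) were lower in the YCC10 knockdown. The tight junction claudin CLDN1 had 9.40 and 23.7 FPKM in SNU719 and 6.09 and 21.6 FPKM in YCC10, with both knockdowns above both controls. It rose by 1.46 (SE 0.16, limma adjusted p = 0.00271). E-cadherin (CDH1) had 150.1 and 191 FPKM in SNU719 and 131 and 186 FPKM in YCC10, and rose by 0.43 (limma adjusted p = 0.00686). The keratin KRT19 rose by 0.47 (limma adjusted p = 0.0042). Of 4 mesenchymal genes above the filter, ACTA2 rose by 0.33, a call lost in 17 of 27 alternatives (limma adjusted p up to 0.393). Without either YCC10 library 4 of the 27 epithelial genes rose.

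Intestinal lineage genes gave 6 rises and 1 fall among 13 tested, with a median of 0.64. REG4, a secreted lectin of intestinal metaplasia and gastric cancer, had 146 and 364 FPKM in SNU719 and 48.1 and 115 FPKM in YCC10. It was higher in each knockdown and rose by 1.28 (SE 0.173, limma adjusted p = 0.00545). The goblet cell gene SPINK4 had 39.3, 82.7, 32.9 and 79.9 FPKM, with both knockdowns above both controls (1.16, limma adjusted p = 0.00588). The adhesion molecule CEACAM6 had 52.9, 83.2, 4.33 and 23.1 FPKM (1.41, limma adjusted p = 0.013), and the lectin LGALS4 had 439, 612, 1.46 and 7.62 FPKM (1.14, limma adjusted p = 0.0162). VIL1 (0.86), the villin of microvilli, and CDH17 (0.85), a cadherin of intestinal epithelium, rose too. The member that fell was CFTR, the chloride channel, from 20.3 to 10.4 FPKM (SNU719) and from 9.06 to 4.27 FPKM (YCC10) (-0.92, SE 0.0568, limma adjusted p = 0.000624). Among 9 gastric lineage genes, ANXA10 rose and SOX2 fell (-0.40), but the SOX2 call was lost in 20 of 27 alternatives (limma adjusted p up to 0.424). Of 12 stem and progenitor markers, LRIG1 (-0.53) and TNFRSF19 fell. Over all genes tested, 11.4% rose and 13.2% fell. The intestinal list had 3 rises and 1 fall without either YCC10 library.

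Of the genes with the largest rises for the shared effect, FER1L6 and SPRR3 led. FER1L6, a ferlin of membrane traffic, had 0.431 and 1.86 FPKM in SNU719 and 1.00 and 25.3 FPKM in YCC10, a shared change of 2.36 (SE 0.49, limma adjusted p = 0.0147). The cornified envelope gene SPRR3 had 1.05 and 4.87 FPKM in SNU719 and 32.1 and 281 FPKM in YCC10, a shared change of 2.31 (SE 0.304, limma adjusted p = 0.00503). Both were low in SNU719, so that most of the gain in level was in YCC10. The elastase inhibitor PI3 went the other way, with 29.1 and 173 FPKM in SNU719 and 5.70 and 15.7 FPKM in YCC10, and rose by 1.93 (SE 0.342, limma adjusted p = 0.0104). SPRR1B, another envelope gene, rose by 1.82, but the cornified envelope and squamous list as a whole had a median of -0.03, with 2 of 7 tested members rising and KRT5, KRT6A, KRT13, CNFN and SCEL not passing. Among other large rises were the autophagy gene TP53INP2 (1.83) and the tetraspanin TSPAN1 (1.79). PSAPL1, which is related to prosaposin, and HABP2, a secreted protease, rose by 1.55 and 1.64.

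Cytokine and receptor genes stood among these rises. IL1RN, the antagonist of the interleukin-1 receptor, had 3.27 and 13.3 FPKM in SNU719 and 10.7 and 33.5 FPKM in YCC10. Its knockdowns exceeded both controls, and it rose by 1.65 (SE 0.118, limma adjusted p = 0.000624). IL33, an alarmin of epithelial cells, had 1.55 and 11.1 FPKM in SNU719, and in YCC10 it was listed at 0 with siCtrl and at 1.35 FPKM with siTCF7. Its fitted change of 1.74 (limma adjusted p = 0.00848) depends on the pseudocount of 1. MET, the hepatocyte growth factor receptor, had 69.4 and 162 FPKM in SNU719 and 25.4 and 102 FPKM in YCC10, and rose by 1.59 (SE 0.158, limma adjusted p = 0.00206). IL2RG, the common gamma chain of cytokine receptors, had 76.6 and 185 FPKM in SNU719 and 0.284 and 3.57 FPKM in YCC10, and rose by 1.55 (SE 0.149, limma adjusted p = 0.00197). ANXA10, an annexin of gastric epithelium, had 1.38 and 12.5 FPKM in SNU719 and 19.1 and 29.9 FPKM in YCC10, and rose by 1.56 (SE 0.358, limma adjusted p = 0.0189).

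The largest falls beside TCF7 included genes of several unrelated families. PDIA5, a disulfide isomerase of the endoplasmic reticulum, had 34.1 and 14.2 FPKM in SNU719 and 42.6 and 5.70 FPKM in YCC10. It changed by -1.96 (SE 0.277, limma adjusted p = 0.0062), with both knockdowns below both controls. TXN, the thioredoxin gene, had 828 and 405 FPKM in SNU719 and 382 and 71.9 FPKM in YCC10, and changed by -1.71 (SE 0.252, limma adjusted p = 0.00697). LAPTM4A, a lysosomal membrane protein, had 147 and 61.4 FPKM in SNU719 and 75.4 and 18.1 FPKM in YCC10. Its change of -1.62 (SE 0.146, limma adjusted p = 0.00162) also separated the arms. The lysosomal thioesterase PPT1 (-1.50), the mitochondrial cristae protein CHCHD3 (-1.76), the amino acid carrier SLC7A5 (-1.48), EFCAB14 (-1.48), CDCA7L (-1.55) and the inner nuclear membrane protein LBR (-1.47) fell as well. The histone gene H2BC12 had 31.6 and 11.2 FPKM in SNU719 and 59.8 and 10.5 FPKM in YCC10 (-1.91, limma adjusted p = 0.0028). Its near-identical H2B copies make this assignment uncertain. The neutrophil chemokine CXCL5 had 129 and 81.5 FPKM in SNU719 and 37.8 and 5.85 FPKM in YCC10, and fell by 1.58 (limma adjusted p = 0.016).

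Immune and signalling lists gave smaller and mixed changes. Their counts are to be read beside the 11.4% of all genes tested that rose and the 13.2% that fell. Of 21 interferon-stimulated genes tested, 7 rose and 2 fell (median 0.26). IFI6 had 3.08 and 7.61 FPKM in SNU719 and 0.553 and 2.38 FPKM in YCC10 and rose by 1.10 (limma adjusted p = 0.0107). IRF9 (0.85) and STAT2 (0.54), both of the factor that transmits type I interferon signals, rose too, while USP18 (-0.80), which restrains that signal, and OAS3 (-0.39) fell. Only 1 of these genes passed without either YCC10 library, and it fell. Of 13 MHC class I presentation genes, 3 rose and 1 fell, with B2M at 0.56, HLA-E at 0.55 and TAPBP at 0.47, each summed over more than 1 row of the table. Of 23 NF-kB genes, 6 rose and 3 fell, among them BIRC3 (0.88, limma adjusted p = 0.00197), an inhibitor of apoptosis, and SOD2 (-0.70), a mitochondrial dismutase. Of 25 apoptosis regulators, 6 rose and 4 fell, including the survival factor MCL1 (0.89, limma adjusted p = 0.00252) and the BH3 protein BID (-0.99, limma adjusted p = 0.00282). Of 18 immediate early genes, 5 rose and 1 fell (median 0.34), among them KLF6 (0.68) and CCN1 (0.68). Of 10 ERK feedback inhibitors, DUSP4 (0.50) and SPRED1 (0.59) were among 3 that rose, and ETV5 fell by 0.66.

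Metabolic and stress lists gave few or mixed calls. Of 19 ATF4 and amino acid response genes, 1 rose and 5 fell (median -0.28), with the serine synthesis enzyme PSAT1 at -1.13 (limma adjusted p = 0.0205) and MTHFD2, of mitochondrial folate metabolism, at -0.74. Of 18 endoplasmic reticulum chaperone genes, 5 rose and 3 fell, and the risers included SEL1L (0.84), DNAJC3 (0.78) and HERPUD1 (0.40). Of 24 hypoxia and glycolysis genes, 2 rose and 6 fell, among them GAPDH (-0.51). Of 37 respiratory chain subunits, 1 rose (SDHC, 0.38) and 5 fell, with ATP5F1C lowest at -0.88. Of 24 p53 targets, 4 rose and 2 fell, among them TP53I3 (0.86), PLK2 (0.32) and the phosphatase PPM1D (-0.40). These lists had medians between -0.28 and 0.02, and their counts are to be read beside the 11.4% and 13.2% of all genes.

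The size of the response differed between the lines for 886 genes (7.21% of those tested), with the effect in YCC10 above that in SNU719 for 333 (2.71%) and below it for 553 (4.5%). G2/M and G1/S genes made up 49 and 30 of the latter. Besides these, AKR1B10, an aldo-keto reductase, had 62.2 and 58.1 FPKM in SNU719 and 105 and 28.0 FPKM in YCC10, a difference of -1.78 (limma adjusted p = 0.00136). CA2, a carbonic anhydrase, had 0.63 and 0.592 FPKM in SNU719 and 75.1 and 19.0 FPKM in YCC10 (-1.89, limma adjusted p = 0.0156, and 0.184 with a pseudocount of 0.1). Both were nearly level in SNU719, where CA2 is hardly present, and lower in YCC10. TNS4, a focal adhesion protein, was higher with siTCF7 in SNU719 (8.25 to 14.9 FPKM) and lower in YCC10 (155 to 78.2 FPKM), and this difference of -1.76 passed (limma adjusted p = 0.011). In the other direction, PCP4, a calmodulin regulator, was lower in SNU719 (32.0 to 22.1 FPKM) and higher in YCC10 (6.63 to 29.9 FPKM), a difference of 2.53 (limma adjusted p = 0.00572). STBD1, which binds glycogen, had 1.18 and 1.37 FPKM in SNU719 and 4.03 and 22.7 FPKM in YCC10 (2.12, limma adjusted p = 0.00948). FER1L6 had the largest difference among the named genes (2.71, limma adjusted p = 0.000142), and ANXA10 rose further in SNU719 (-1.88, limma adjusted p = 0.0259). The ANXA10 difference did not pass when any of 6 siMYB-experiment libraries was left out (limma adjusted p up to 0.0634).

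Because MYB fell with siTCF7, the effect was set against the mean siMYB effect, measured in the same lines with separate controls. The effects differed for 1618 genes (13.2% of those tested), with siTCF7 above siMYB for 1118 (9.1%) and below it for 500 (4.07%). The split moved with the scaling: 69.1% of the differing genes were above with FPKM as deposited, 51.0% after median-of-ratios scaling and 54.1% after quantile normalization. Of the 60 G2/M and 49 G1/S members 0 passed this test in limma. Unadjusted limma p-values under 0.05 came from 20 and 7 of them, beside 3689 of all 12290 genes tested. Differences of the siTCF7 effect between the lines enter the spread of this test, so 0 passing does not show equal effects. The G2/M and G1/S medians were -1.11 and -0.79 under siTCF7 and -0.48 and -0.56 under siMYB. Of 26 WNT target and feedback genes, a list that holds TCF7 itself, 4 were higher and 9 lower relative to siMYB. In the cholesterol synthesis list 10 of 26 members were higher relative to siMYB. INSIG1, which retains the sterol sensor, was at 0.02 under siTCF7 and -0.88 under siMYB, and SC5D, of the last steps of synthesis, by 0.47 and -0.44.

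Several of the genes that fell most with siTCF7 had a positive mean log2 change over both lines under siMYB. H2BC12 was at -1.91 under siTCF7 and 0.82 under siMYB, a difference of -2.73 (limma adjusted p = 0.00144). CXCL5 was at -1.58 and 1.12 (difference -2.70, limma adjusted p = 0.00735). LAPTM4A was at -1.62 and 0.54 (difference -2.16, limma adjusted p = 0.000949), and PDIA5 at -1.96 and 0.18 (difference -2.14, limma adjusted p = 0.0081). By line, the siMYB change of PDIA5 was -0.19 in SNU719 and 0.55 in YCC10. TXNIP, the thioredoxin-interacting protein, had 52.4 and 34.0 FPKM in SNU719 and 36.1 and 12.6 FPKM in YCC10 under siTCF7, a change of -1.03 against 1.06 (difference -2.09, limma adjusted p = 0.00182). In the other direction, RFLNA, an actin regulator, had 3.22 and 5.83 FPKM in SNU719 and 48.8 and 119 FPKM in YCC10, and stood at 0.98 against -1.12 (difference 2.1, limma adjusted p = 0.00149). VILL, which resembles villin, was at 0.70 against -1.27, and PSAPL1 at 1.55 against -0.43. By line, the siMYB change of PSAPL1 was 0.06 in SNU719 and -0.91 in YCC10. GPAT3, an enzyme of triglyceride synthesis, was at 0.77 against -1.12, and AHCYL2 at 0.23 (not passing) against -1.73.

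**Figure D4:**
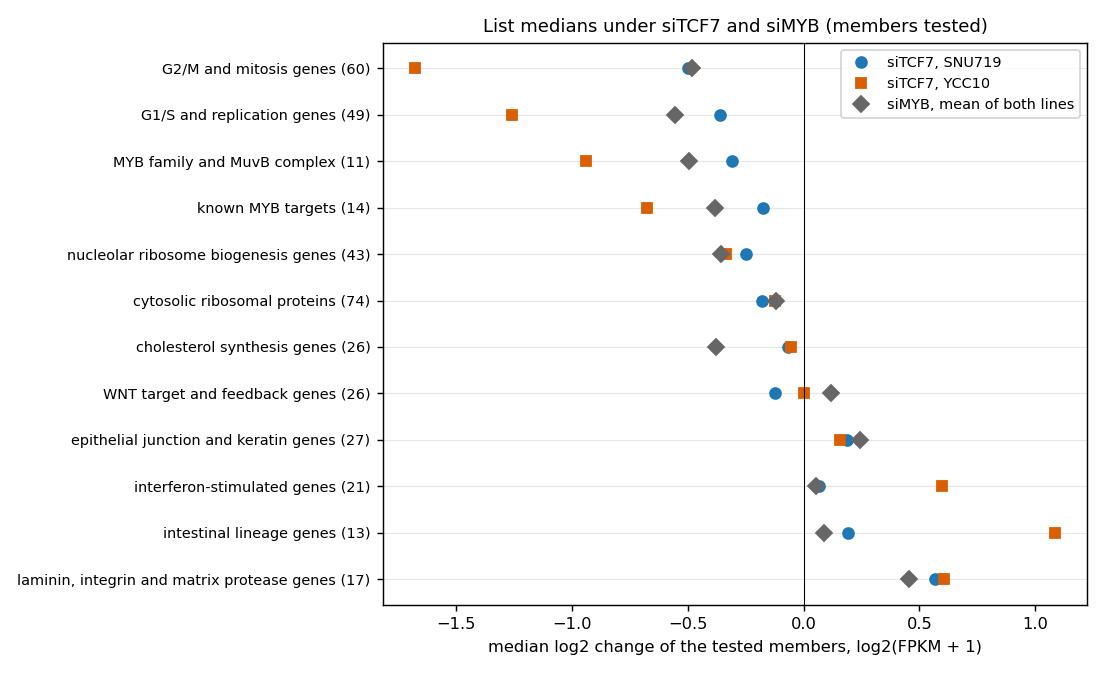
Median log2 change (log2(FPKM + 1), horizontal axis) of the tested members of 12 gene lists (number in brackets) under siTCF7 in SNU719 (circles), under siTCF7 in YCC10 (squares) and under siMYB as the mean of both lines (diamonds). The G2/M median is -0.50 in SNU719 and -1.68 in YCC10 against -0.48 under siMYB, and the laminin list lies to the right of 0 in all 3.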

How the data were processed

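Polyadenylated RNA (1 ug of total RNA, TruSeq Stranded mRNA kit, per the labels' protocols) was sequenced in 16 libraries. Per the submitters' processing notes the authors used bcl2fastq 2.20.0, HISAT2 2.1.0 on hg38 and Cufflinks 2.2.1. Annotation, settings and use of strand: not given in the sources used here. The authors deposited FPKM values in 1 table of 33648 rows and 28167 symbols. Rows of 1 symbol were summed (2097 symbols on 7578 rows), and 97.8% of symbols matched RefSeq. Depth in reads is unknown.

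Tests used limma 3.58.1 (lmFit, eBayes with trend) in R 4.3.3 on log2(FPKM + 1), which understates changes of low genes, for the 12290 genes whose mean over all 16 libraries reached 1 FPKM. P-values were adjusted by Benjamini-Hochberg over all genes tested, with a threshold of 0.05. The shared effect of siTCF7 came from a fit with 6 line-by-set intercepts, siMYB per line, and 1 effect each for siTCF7 and sgMYB-E3 (6 residual degrees of freedom), so a difference between the lines enters the spread. Effects per line and their difference came from a fit with separate effects (4 residual degrees of freedom), which assumes that single libraries vary as the siMYB-experiment replicates do. The method was run on simulated data with equal spread in all libraries and the same change in both lines. That run could not test this assumption.

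The members and the 38 gene lists (913 genes, 699 tested) were chosen with earlier results of these data known. List counts are read against the share of all genes passing. TCF7 and MYB are always named. Among genes that stand on 1 row, reach 5 FPKM in 1 of the 4 libraries and are no short RNAs or clone names, the rule names the 14 largest rises and falls of the shared effect among genes past the threshold with the same sign in both lines, the 6 largest and smallest line differences and the 5 largest and smallest differences to siMYB. For each list up to 3 passing members with the lowest p are named, and any tested TCF/LEF, WNT target or MYB family member, here without these limits on rows and level (B2M, HLA-E, TAPBP and LRIG1 are sums of several rows). Genes named beyond this rule (such as CDK1, ESPL1, MKI67, PCNA and further list members) were chosen after their values were seen. Promoters are from RefSeq (GRCh38.p14), loci from GENCODE v29. Alternatives were pseudocount, filter, scaling, a replicate block, the trend, summed rows, and leaving out libraries. Figures used Python 3.11.15 and matplotlib 3.10.9. A few genes are not reported here.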

Additional observations from a re-analysis of the deposited data

Results flagged for a closer look

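For 52 of the 150 genes that the naming rules gave, the siTCF7 effect differed between the lines by the test of the difference itself (limma on log2(FPKM + 1), adjusted over all 12290 genes tested). Each value is the log2 change in YCC10 minus that in SNU719, from 1 library per arm and line. The difference was negative for CA2 (-1.89), ANXA10 (-1.88), LINC00326 (-1.86), CXCL5 (-1.84), AKR1B10 (-1.78) and TNS4 (-1.76). It was also negative for genes that fell in the shared effect: CHCHD3 (-1.71), LBR (-1.67), MYBL2 (-1.58), PDIA5 (-1.49), TXN (-1.36), MYB (-1.24) and SLC7A5 (-1.03). Smaller negative differences were those of LAPTM4A (-0.75), PPT1 (-0.74) and EFCAB14 (-0.64). Cell cycle and MYB family genes had lower log2 changes in YCC10 than in SNU719: TOP2A (-1.37), KIF20A (-1.14), BIRC5 (-1.09), CCNB2 (-1.07), FOXM1 (-1.06), PLK1 (-1.06), CCNB1 (-1.005) and ORC1 (-0.89), with LIN54 (-0.89), RBL1 (-0.76), MYBL1 (-0.75), TFDP1 (-0.69), CCND1 (-0.67) and LIN52 (-0.63). PSAT1 (-1.31), ACAT2 (-1.08), RRP1B (-1.03), TXNIP (-0.84), MTHFD2 (-0.83), ATP5F1C (-0.71) and DUSP4 (-0.59) were negative as well. The difference was positive for WLS (0.46), LRIG1 (0.60), HLA-E (0.70), ITGB6 (0.75), CCND3 (1.62), MET (0.75), TP53INP2 (1.16), SPRR3 (1.57), HABP2 (1.82), MMP7 (2.00) and DKK4 (2.01), and for STBD1 (2.12), H2BC8 (2.35), PCP4 (2.53) and FER1L6 (2.71). H2BC8 has near-identical H2B copies, so its reads may belong to them. CXCL5 lost the threshold after quantile normalization (limma adjusted p = 0.0517) and CA2 with a pseudocount of 0.1 (limma adjusted p = 0.184). ANXA10 and MMP7 lost it when any of 6 single siMYB-experiment libraries was left out (limma adjusted p up to 0.0634 and 0.0719). TCF7 itself was left at 29.7% of control in SNU719 and 18.3% in YCC10, and the part of this in the differences was not tested.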

How the results depend on the processing

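The counts for the shared effect depended most on which libraries supplied the spread: 3028 genes passed in the full fit, 13 with the 4 TCF7-set libraries alone, 5 with the TCF7 and CRISPR interference sets, and 3 without the 4 libraries numbered 1 (chosen after seeing the data). Leaving out each library in turn gave 630 to 4307 genes for the shared effect, 243 to 544 for SNU719, 3387 to 3948 for YCC10, 502 to 884 for the line difference and 982 to 3248 for the difference to siMYB. The counts of 630 came when either siTCF7-experiment library of YCC10 was absent, and that of 3248 when either one of SNU719 was. Effects within a line could not be fitted without that line's own library, and the effect called shared was then that of the other line only. With no filter on low values, SNU719 gave 877 genes and the line difference 1430. The other settings of pseudocount, filter, scaling, trend and row summing kept each count within 1.5 times, and no named gene reversed its direction under any alternative run. Of the 109 named genes passing for the shared effect, 46 lost the threshold without the YCC10 siCtrl library, 11 without the filter and 6 after quantile normalization. The replicate numbers repeat only in the siMYB experiment. Same-numbered libraries deviated together in all 6 pairs of its groups (correlations of 0.327 to 0.44), within and across lines, so the number marks a difference shared by all groups, and a pairing beyond that was not shown. A replicate block for them gave 3354 genes for the shared effect, 1336 for SNU719, 5803 for YCC10, 2124 for the line difference and 1887 for the difference to siMYB, and it ended the shared calls of CCND3, MNT and SOX2. FPKM without counts sets no limit of detection, so values near 0 carry an unknown counting error.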
